A study of Mus musculus with 12 samples.

Results

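The comparison described here is the last step of a 4-point time course in mouse embryonic stem cells: 3 RNA-seq libraries labelled day 6 were set against 3 labelled day 4. The 6 libraries were chosen by these labels from the 12 of the series, which also has 3 libraries each of days 0 and 2. All 4 groups carry the same label of line and cell type and no genotype or agent is named for any of them. The stock cells were grown with LIF in a medium with KnockOut Serum Replacement, on gelatin with irradiated mouse embryonic fibroblasts as feeder cells. The sources used here give neither the culture conditions after day 0 nor whether feeder cells were still present when RNA was taken. Of 55335 genes in the table, 16468 had enough counts to be tested. Since no label states that libraries of a day are independent cultures, each p-value reflects variation between libraries that may be only technical.

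Embryonic stem cells are derived from the inner cell mass of the blastocyst and are held in an undifferentiated state by LIF acting through STAT3 and by a network of transcription factors around Pou5f1, Sox2 and Nanog. When they leave this state they can form the germ layers and extraembryonic endoderm, and mesenchymal and endodermal derivatives lay down collagens, laminins and other matrix proteins. A small and changing fraction of cells in such cultures switches on genes of the 2-cell embryo, among them the Zscan4 cluster, and germline genes such as Stra8 and Dazl can be switched on in them as DNA methylation and signalling change. Because the title of the series concerns NuRD, a complex that combines a nucleosome remodeller with histone deacetylases, and the architectural DNA-binding protein CTCF, genes of both are given as well.

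The day 4 libraries held 10020755, 10160416 and 6945900 counts and the day 6 libraries 13266962, 9165606 and 9475392. In a principal component analysis of the 6 libraries the first axis took 61.7% of the variance and separated the days, and the second, with 11.5%, set day 4 replicate 3, which is the shallowest library, apart from the other 5. Transcripts of the mitochondrial genome made up 2.37 to 2.54% of counts on day 4 and 1.98 to 2.02% on day 6. Gm42418, an annotated gene that overlaps a ribosomal RNA repeat, took 1.51 to 1.56% of counts on day 4 and 2.64 to 2.92% on day 6. Levels are given as CPM, TMM-scaled counts per 1000000 counts, and are not corrected for gene length. Changes are log2 fold changes of day 6 against day 4 with their standard error (SE), and p-values are from edgeR's quasi-likelihood test, adjusted by the Benjamini-Hochberg method over all 16468 genes. A gene is said to have risen or fallen where this adjusted p was under 0.05.

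From day 4 to day 6, 7065 genes changed, or 42.9% of those tested, of which 3893 rose (23.6%) and 3172 fell (19.3%). Most changes were small: 4854 of the 7065 were under 1.5-fold. At least 2-fold rises were seen for 505 genes (3.07%) and falls of that size for 419 (2.54%), and at least 4-fold changes for 62 genes that rose (0.376%) and 53 that fell (0.322%). The median absolute log2 change over all tested genes was 0.24, beside 0.27 from day 2 to day 4 and 0.47 from day 0 to day 2. The replicates of the 2 days did not overlap in 8347 genes (50.7%). Most genes named below were chosen for large changes or small p-values, so a lack of overlap in them adds little. Several of the largest rises that met the naming rule were in matrix genes (Col3a1, Tnc, Sned1 and Col1a1), and several of the largest falls in Zscan4 genes and pseudogenes.

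**Figure D1:**
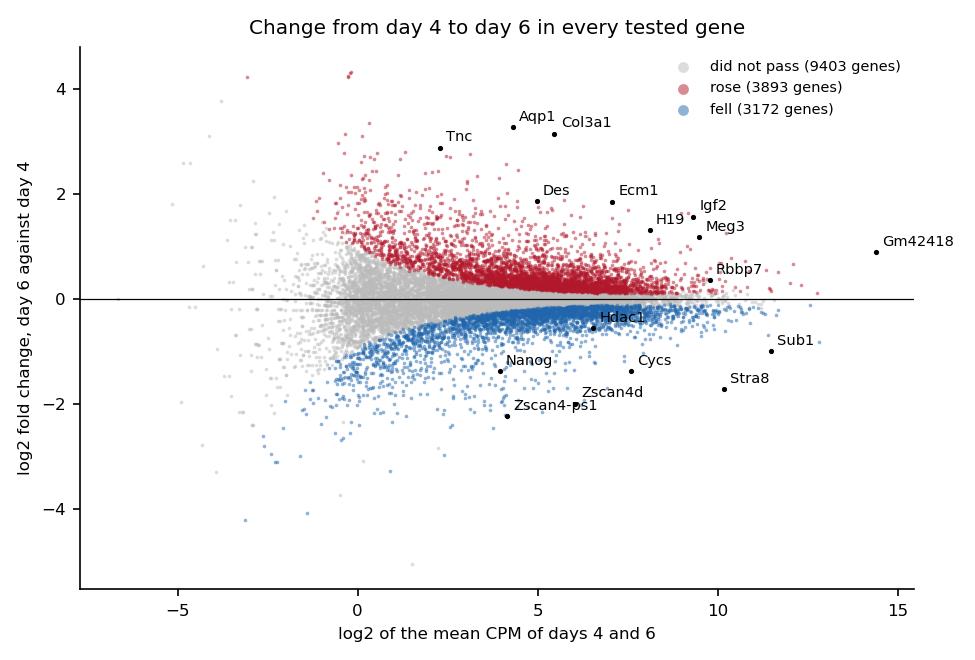
Log2 fold change of day 6 against day 4 (vertical axis) against the log2 of the mean CPM of both days (horizontal axis) for the 16468 tested genes, with genes that rose in red, genes that fell in blue and the rest in grey. The 3893 rises and 3172 falls lie on both sides of 0 over the whole range of levels, and Aqp1, Col3a1, Stra8 and the Zscan4 genes stand far from it.

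The largest named rise was that of Aqp1, a water channel of epithelia and endothelia. It measured 3.77, 3.27 and 4.401 CPM in the day 4 libraries and 36.8, 32.0 and 39.4 CPM in the day 6 libraries, a log2 fold change of 3.26 ± 0.13 (SE, adjusted p = 2.15e-22). Every day 6 library lay far above every day 4 library, and the naming rule required that they not overlap. Col3a1, a fibrillar collagen of loose connective tissue, stood at 9.10, 9.03 and 8.80 CPM on day 4 and 82.4, 83.5 and 72.6 CPM on day 6, 8.84-fold higher (log2 3.14 ± 0.09, adjusted p = 2.56e-27). On days 0 and 2 its means had been 0.624 and 0.348 CPM, so the gene was near the floor until day 4. Tnc, which encodes the matrix protein tenascin C, went from 1.06, 1.44 and 0.852 to 8.30, 10.05 and 7.36 CPM (7.36-fold, adjusted p = 6.05e-13). The other named rises with the smallest p-values follow. Igf2, a fetal growth factor expressed from the paternal allele, rose from 310.3, 328 and 332 to 922, 1002 and 947 CPM (2.96-fold, log2 1.57 ± 0.04, adjusted p = 2.56e-27). Ecm1, a secreted matrix glycoprotein, rose from 53.5, 61.3 and 61.3 to 212, 216 and 206 CPM (3.61-fold, adjusted p = 1.7e-26). Tinagl1, a matricellular protein of basement membranes, measured 64.0, 67.4 and 73.8 CPM on day 4 and 198, 198 and 197 CPM on day 6 (2.91-fold, adjusted p = 2.53e-25). Gstm1, a glutathione transferase with close paralogs, rose 3.22-fold, and its paralog Gstm3 6.56-fold from a mean of 1.45 CPM. The other large rises were the fast skeletal troponin Tnni2 (6.77-fold), the tight junction protein gene Cldn11 (6.48-fold), the matrix gene Sned1 (5.95-fold), the pericyte and fibroblast surface protein gene Cd248 (5.38-fold), the mucosal scavenger protein gene Dmbt1 (5.33-fold), Selenbp2 (5.23-fold) and Ankrd1 (5.03-fold).

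**Figure D2:**
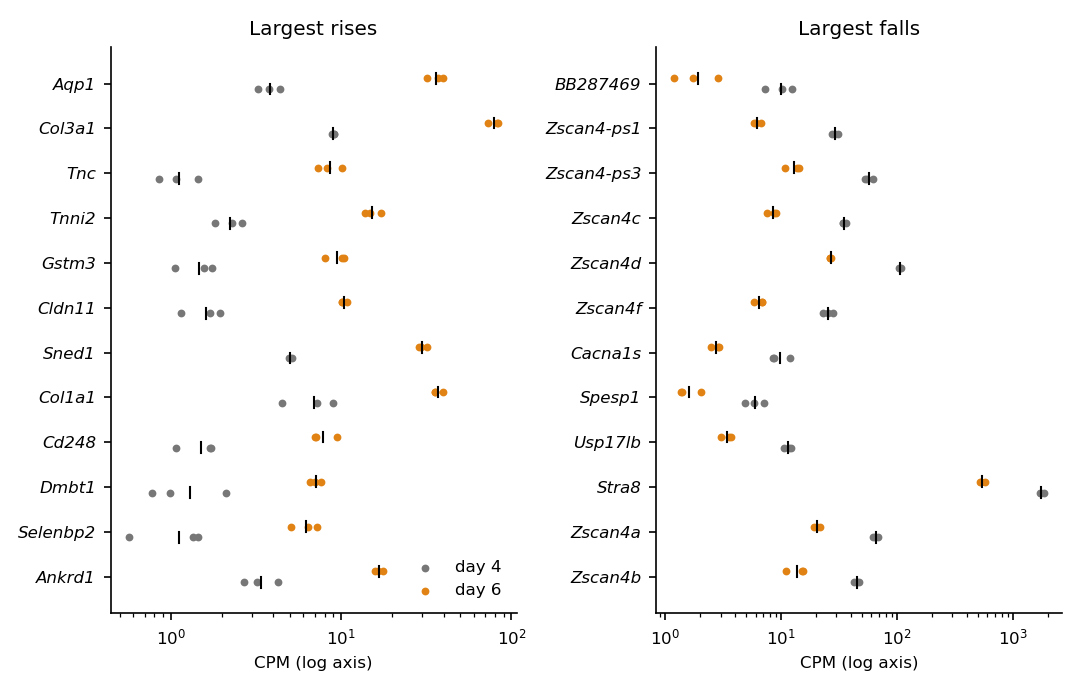
CPM in each library (log axis) of the 12 largest named rises (left panel) and 12 largest named falls (right panel), with day 4 in grey, day 6 in orange and short black lines at the mean of 3 libraries. In all 24 genes the 3 points of day 4 and the 3 of day 6 do not overlap, which the naming rule required.

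Genes of the 2-cell embryo fell together. Of 24 tested members of this list, 20 fell and the other 4 did not pass, with a median log2 change of -1.45, beside 0.02 over all tested genes, of which 19.3% fell. Zscan4d encodes a zinc finger protein of the SCAN family, tied to telomere maintenance in stem cells. It lies at chr7:11161374-11166159 on the minus strand (GENCODE M21, GRCm38). Its level was 105, 106 and 107 CPM on day 4 and 26.6, 26.9 and 26.5 CPM on day 6 (3.97-fold lower, log2 -1.99 ± 0.06, adjusted p = 3.44e-26). Within each day the 3 libraries were almost the same. The earlier means were 5.10 CPM on day 0 and 79.1 CPM on day 2, so day 4 was the highest of the 4 days and day 6 lay between days 0 and 2. Zscan4c fell from 33.9, 36.2 and 33.9 to 7.48, 9.07 and 8.72 CPM, Zscan4f from 22.9, 27.8 and 25.3 to 6.81, 5.83 and 6.83 CPM, Zscan4a from 68.5, 65.0 and 62.6 to 19.1, 20.5 and 21.4 CPM and Zscan4b from 42.8, 46.7 and 45.002 to 15.1, 15.3 and 10.9 CPM. The pseudogenes Zscan4-ps1 and Zscan4-ps3 of the same cluster fell 4.68-fold and 4.401-fold. Usp17lb, a deubiquitinase gene of a tandem family, fell 3.37-fold, from 11.6, 12.2 and 10.6 to 3.52, 3.67 and 3.05 CPM. Duxf3, whose protein activates 2-cell genes, had a log2 value of -0.39 that did not pass the test. Zscan4 and Usp17l genes are near-identical copies, and how reads matching several copies were counted is not given in the sources used here, so the split among copies is uncertain.

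The likeness of the copies can be seen just upstream of their starts, which is why 4 of them are printed here. Each line is the 106 bases around the match to TATAAA (capitals), 5′ to 3′ on the gene's strand, from the RefSeq promoters of GRCm38.p6, at chr7:10905051-10905156 (minus strand) for Zscan4b, chr7:11005616-11005721 (plus) for Zscan4c, chr7:11166183-11166288 (minus) for Zscan4d and chr7:11397809-11397914 (plus) for Zscan4f.
Zscan4b: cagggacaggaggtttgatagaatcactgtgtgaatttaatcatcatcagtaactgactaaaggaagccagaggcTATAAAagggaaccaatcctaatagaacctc
Zscan4c: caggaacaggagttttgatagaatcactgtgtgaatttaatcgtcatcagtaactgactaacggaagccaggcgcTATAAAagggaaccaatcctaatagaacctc
Zscan4d: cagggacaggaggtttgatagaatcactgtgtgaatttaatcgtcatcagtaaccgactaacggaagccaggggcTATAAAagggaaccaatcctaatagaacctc
Zscan4f: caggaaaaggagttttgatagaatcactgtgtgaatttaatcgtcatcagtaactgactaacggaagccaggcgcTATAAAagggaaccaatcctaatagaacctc
In all 4 copies 98 of the 106 positions were the same (92.5%), and pairs shared 93.4% to 99.1%. TATAAA was found on either strand in 13.6% of the 32851 promoters of the table.

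Meiosis and germline genes were mixed. Stra8, the gatekeeper of meiotic entry and a direct target of retinoic acid, had one of the smallest p-values of all. It lies at chr6:34920163-34939344 on the plus strand. Its level was 1709, 1843 and 1747 CPM on day 4 and 532, 570.2 and 516 CPM on day 6 (3.27-fold lower, log2 -1.71 ± 0.05, adjusted p = 1.81e-27). All 3 libraries of day 6 were below a mean of 2992 CPM on day 2 and above one of 177 CPM on day 0. The 250 bases before its RefSeq start (GRCm38.p6, chr6:34920698-34920947, plus strand) are shown because they hold AGGTCA, the half-site that retinoic acid receptors bind, in capitals, 194 and 38 bases before the start.
Stra8: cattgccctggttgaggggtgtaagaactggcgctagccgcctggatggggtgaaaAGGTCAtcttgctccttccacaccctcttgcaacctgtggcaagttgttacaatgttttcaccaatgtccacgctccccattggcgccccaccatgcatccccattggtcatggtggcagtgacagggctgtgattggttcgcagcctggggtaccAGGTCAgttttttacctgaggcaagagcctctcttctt
AGGTCA was found on either strand in 16.3% of all 32851 promoters of this table, and the match is a description of the letters only. Among tested genes with a promoter in the table, 17.3% of 208 that fell at least 2-fold held it, 13.8% of 327 that rose at least 2-fold and 12.2% of all 11405.

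In the meiosis list 9 of 25 tested members fell and 3 rose (median -0.12), and in the germline list 11 of 22 fell and 3 rose (median -0.09). Of all tested genes 19.3% fell and 23.6% rose. With DESeq2 the germline falls were 7, and without day 4 replicate 3 its rises were 5. Dazl, an RNA-binding protein of germ cells, fell from 313, 289.7 and 323 to 178, 164 and 167 CPM (1.81-fold, adjusted p = 5.61e-18). Rec8, the meiotic cohesin subunit, fell from 70.3, 70.1 and 62.0 to 45.6, 44.8 and 41.9 CPM, and Meioc, which prolongs the meiotic programme, from 108, 109.5 and 112 to 79.4, 77.7 and 77.4 CPM. Hormad2, a chromosome axis protein, rose from 25.3, 23.8 and 26.1 to 35.6, 34.3 and 34.6 CPM, and Mov10l1, an RNA helicase of the piRNA pathway, from 37.7, 35.8 and 35.2 to 55.0, 57.6 and 57.5 CPM. The libraries of both days were apart in each of these genes, as in 50.7% of all tested genes. Ddx4 and Dnd1 of the germline list rose too, by log2 0.24 and 0.51, while Piwil1 fell by 1.29 on the log2 scale.

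Markers of embryonic stem cells fell further. Summed over 8 markers of embryonic stem cells, the level was 956 to 980 CPM on day 4 and 759 to 789 CPM on day 6, beside 5256 to 5325 CPM on day 0. Here as elsewhere in bulk RNA, fewer cells of a type and less RNA per cell cannot be told apart. Of the 8 markers 7 fell and Tdgf1 rose. Pou5f1, the central pluripotency factor Oct4, fell only 1.21-fold, from 359, 358 and 340.1 to 296, 275 and 302 CPM (log2 -0.28 ± 0.05, adjusted p = 4.56e-06). Nanog fell 2.59-fold, from 23.1, 23.2 and 20.02 to 8.30, 10.2 and 7.57 CPM (log2 -1.37 ± 0.10, adjusted p = 9.58e-15). Sox2, which also marks neural progenitors, fell from 125, 124 and 126 to 64.4, 70.0 and 68.6 CPM (1.85-fold, adjusted p = 1.25e-17). Replicates of the days were apart in all 3, beside 50.7% of all tested genes. In the core list 11 of 18 fell and 3 rose (median -0.33), beside 19.3% and 23.6% of all tested genes. In the naive list, the genes most typical of LIF cultures, 7 of 17 fell and 2 rose (median -0.33). Esrrb fell from 30.7, 29.2 and 24.6 to 18.1, 19.9 and 16.0 CPM and Zfp42 from 149, 148 and 145 to 108, 111 and 119 CPM. Klf4, with a mean of 61.3 CPM on day 4 and 63.6 CPM on day 6, did not pass the test (adjusted p = 0.448). Tdgf1, the Nodal co-receptor Cripto, rose from 21.9, 21.3 and 22.9 to 48.0, 52.1 and 51.3 CPM (2.29-fold, adjusted p = 1.25e-17), far below its day 0 mean of 528 CPM. The formative and primed list had 5 falls and 1 rise among 15 tested members, and the single rise was lost without any of the 3 day 4 libraries or without day 6 replicate 1 or 2. Nodal fell from 3.10, 3.46 and 3.97 to 0.973, 1.30 and 1.26 CPM, and Dnmt3b, a de novo DNA methyltransferase, from 63.3, 57.7 and 60.3 to 43.8, 44.6 and 46.8 CPM.

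Components of the LIF pathway rose while these markers fell. Of 15 tested LIF and STAT3 genes 8 rose and 1 fell (median 0.58, beside 23.6% of all genes that rose). Lifr, the LIF receptor, rose from 61.8, 55.4 and 55.2 to 105, 99.0 and 99.5 CPM (1.76-fold, adjusted p = 1.23e-14), and Il6st, its signalling partner gp130, from 101, 103 and 106 to 166, 169 and 174 CPM (1.65-fold). Stat3, the transcription factor they activate, rose from 83.0, 79.6 and 81.3 to 125, 118 and 132 CPM. The days did not overlap in Stat3, as in 50.7% of all tested genes. Socs3, its feedback inhibitor, rose from 11.8, 9.89 and 11.1 to 25.1, 26.4 and 24.9 CPM (2.33-fold, adjusted p = 7.8e-13), which left it below its day 0 mean of 129 CPM. The single fall, Tfcp2l1, was lost when day 4 replicate 1, day 4 replicate 3 or day 6 replicate 1 was left out. Immediate early genes overlapped this list in Fos and Junb: 10 of 17 rose and the other 7 did not pass (median 0.43), with 1 fall when day 4 replicate 3 or day 6 replicate 2 was left out. Jun rose from 37.3, 43.3 and 32.9 to 70.6, 75.5 and 67.5 CPM and Fosl2 from 14.2, 15.2 and 18.7 to 37.6, 37.9 and 35.4 CPM, both subunits of AP-1, and Egr1 did not pass (log2 -0.19).

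Feedback genes of FGF and ERK signalling moved the other way: 8 of 20 tested fell and 2 rose (median -0.17). Of all tested genes, for this list and the next 2, 19.3% fell and 23.6% rose. Dusp6, an ERK phosphatase, fell from 28.1, 26.3 and 29.7 to 15.3, 15.6 and 16.8 CPM (1.76-fold, adjusted p = 4.56e-10). The ETS factors Etv5 and Etv4 fell 2.20-fold and 2.81-fold, and the ligand gene Fgf4 fell by 1.40 on the log2 scale. Fgfr3, a receptor, rose from 8.13, 6.82 and 9.37 to 16.6, 16.1 and 16.7 CPM. In the BMP list 11 of 20 rose and the other 9 did not pass (median 0.29). The inhibitory Smad6 rose 2.17-fold, from 8.71, 7.49 and 5.82 to 16.5, 17.2 and 15.2 CPM, Smad7 1.72-fold and the receptor Bmpr2 1.35-fold. Each of Id1, Id2, Id3 and Id4, the classical BMP targets, rose, by log2 0.60, 0.19, 0.26 and 0.60. Of 13 Hippo pathway genes 8 rose and 1 fell (median 0.46), and the fall was lost without day 6 replicate 1. Ankrd1, a target of YAP and TAZ, rose from 3.19, 2.69 and 4.26 to 16.5, 17.5 and 15.8 CPM, and Amotl2, an inhibitor of YAP that is also its target, from 209.8, 219 and 218 to 448, 477 and 433 CPM (2.099-fold, adjusted p = 2.2e-21). Yap1 itself did not pass (log2 0.04), whereas Wwtr1, which encodes TAZ, rose 1.38-fold.

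Extracellular matrix genes rose broadly. Among 35 tested collagens 18 rose and 3 fell (median 0.52), and among 34 other matrix genes 23 rose and 11 did not pass (median 0.75). Among 19 basement membrane genes, which share Col4a1 and Col4a2 with the collagens, 13 rose and 2 fell (median 0.45). The shares over all tested genes were 23.6% up and 19.3% down. Col1a1 and Col1a2 encode the chains of type I collagen, the main fibril of connective tissue. Col1a1 measured 7.26, 4.52 and 8.94 CPM on day 4 and 35.4, 39.4 and 35.6 CPM on day 6 (5.48-fold, adjusted p = 4.75e-16). Col1a2 measured 14.8, 14.4 and 15.2 CPM and 49.5, 51.5 and 48.3 CPM (3.37-fold, adjusted p = 3.17e-20). In both genes the days were far apart, though the day 4 libraries of Col1a1 themselves spread from 4.52 to 8.94 CPM. Mmp2, the gelatinase that cuts type IV collagen, rose from 17.4, 17.6 and 20.9 to 58.1, 57.8 and 57.7 CPM (3.14-fold). Timp3, a metalloproteinase inhibitor held in the matrix, rose from 30.4, 31.0 and 23.8 to 75.7, 75.4 and 82.4 CPM, and Sparcl1, a matricellular protein, from 5.03, 5.28 and 4.97 to 23.9, 27.7 and 24.3 CPM. The fibronectin gene Fn1 did not pass (log2 0.00), nor did Vcan, which encodes the proteoglycan versican (log2 -0.08).

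Type IV collagen forms the network of basement membranes. Its chain gene Col4a1 rose from 3348, 3393 and 3399 to 5247, 5645 and 5204 CPM (1.59-fold, adjusted p = 9.75e-16) and Col4a2, which shares its promoter region head to head, from 2053, 2139.7 and 2099.6 to 3006, 3194 and 2975 CPM (1.46-fold). Col4a5 and Col4a6 did not pass. Lama5, a laminin alpha chain of epithelia, rose from 78.5, 73.7 and 79.9 to 134, 138 and 136 CPM (1.76-fold), and Agrn, the heparan sulphate proteoglycan agrin, from 142, 137 and 140.0 to 209, 215 and 201 CPM. The 2 basement membrane genes that fell were Col18a1 and Lama3, by 0.18 and 0.23 on the log2 scale, and 1 fall was left without day 4 replicate 2 or without day 6 replicate 2.

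Smooth muscle contractile genes rose together. Of 18 tested, 17 rose and 1 fell (median of the list 0.71), beside 23.6% and 19.3% of all tested genes. The fall was that of Myl6, by 0.17 on the log2 scale. Acta2, smooth muscle actin, measured 20.9, 18.9 and 17.0 CPM on day 4 and 68.0, 57.2 and 64.3 CPM on day 6 (3.32-fold, log2 1.73 ± 0.08, adjusted p = 9.45e-20). Des, the intermediate filament desmin, measured 13.6, 13.5 and 13.6 CPM and 48.4, 52.1 and 47.5 CPM (3.63-fold, adjusted p = 1.29e-20). Day 4 libraries of Des were almost identical and lay far below those of day 6. Tagln, the actin-bundling transgelin, rose from 86.6, 84.6 and 98.4 to 159, 165 and 160.2 CPM and Myl9, a regulatory myosin light chain, from 64.4, 61.2 and 68.4 to 120.5, 112 and 112 CPM. Between days 2 and 4 the same genes had log2 changes of 4.68 for Acta2, 3.31 for Tagln, 3.57 for Myl9 and 0.11 for Des, the last not past the test. Those values share the day 4 libraries with the comparison described here. The transcription factor SRF binds a sequence called the CArG box, and the promoters that hold one are printed because many contractile genes are SRF targets. Of 16 list members with a RefSeq promoter, 3 held the box within 250 bases before to 50 after the start, against 1.63% of all 32851 promoters. They are Cnn2, an actin-binding calponin, at chr10:79988524-79988573 (plus strand), Myl9 at chr2:156775283-156775332 (plus) and Srf itself at chr17:46556195-46556264 (minus), with the box in capitals (GRCm38.p6).
Cnn2: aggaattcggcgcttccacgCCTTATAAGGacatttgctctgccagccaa
Myl9: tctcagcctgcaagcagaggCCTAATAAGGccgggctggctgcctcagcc
Srf: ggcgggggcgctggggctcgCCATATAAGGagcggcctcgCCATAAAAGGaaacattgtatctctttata
These 3 rose by log2 0.61, 0.83 and 0.30, while Acta2 and Des held no box in this window, which says nothing of boxes elsewhere.

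Matrix and contractile genes moved together with markers of fibroblasts, the feeder cell type. Of 18 tested fibroblast markers 15 rose and 3 did not pass (median 0.87), beside 23.6% of all tested genes that rose. The sum over 12 feeder markers was 59.9 to 63.0 CPM on day 4 and 213 to 234 CPM on day 6, beside 31.2 to 35.3 CPM on day 0. Of the 9 markers tested 8 rose, and Thy1, Dcn, Fap and Dpt had means under 1 CPM over the libraries of both days together. The sum over 5 smooth muscle markers was 132 to 142 CPM and then 300 to 306 CPM. The lists share members: Col1a1, Col1a2 and Col3a1 are counted as collagens and as fibroblast markers. The part of carried-over feeder cells in these rises was not tested. Factors of the epithelial to mesenchymal change rose as well, 10 of 16, and the other 6 did not pass (median 0.71). Twist1 rose from 20.6, 24.1 and 22.0 to 36.4, 41.7 and 39.5 CPM and Zeb2 from 12.002, 14.2 and 12.5 to 22.0, 24.5 and 20.9 CPM, both regulators of the mesenchymal state. Tgfb3, a ligand that induces that state, rose from 9.87, 8.65 and 8.66 to 28.6, 27.1 and 26.3 CPM (3.01-fold). Snai1 and Cdh2 did not pass.

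**Figure D3:**
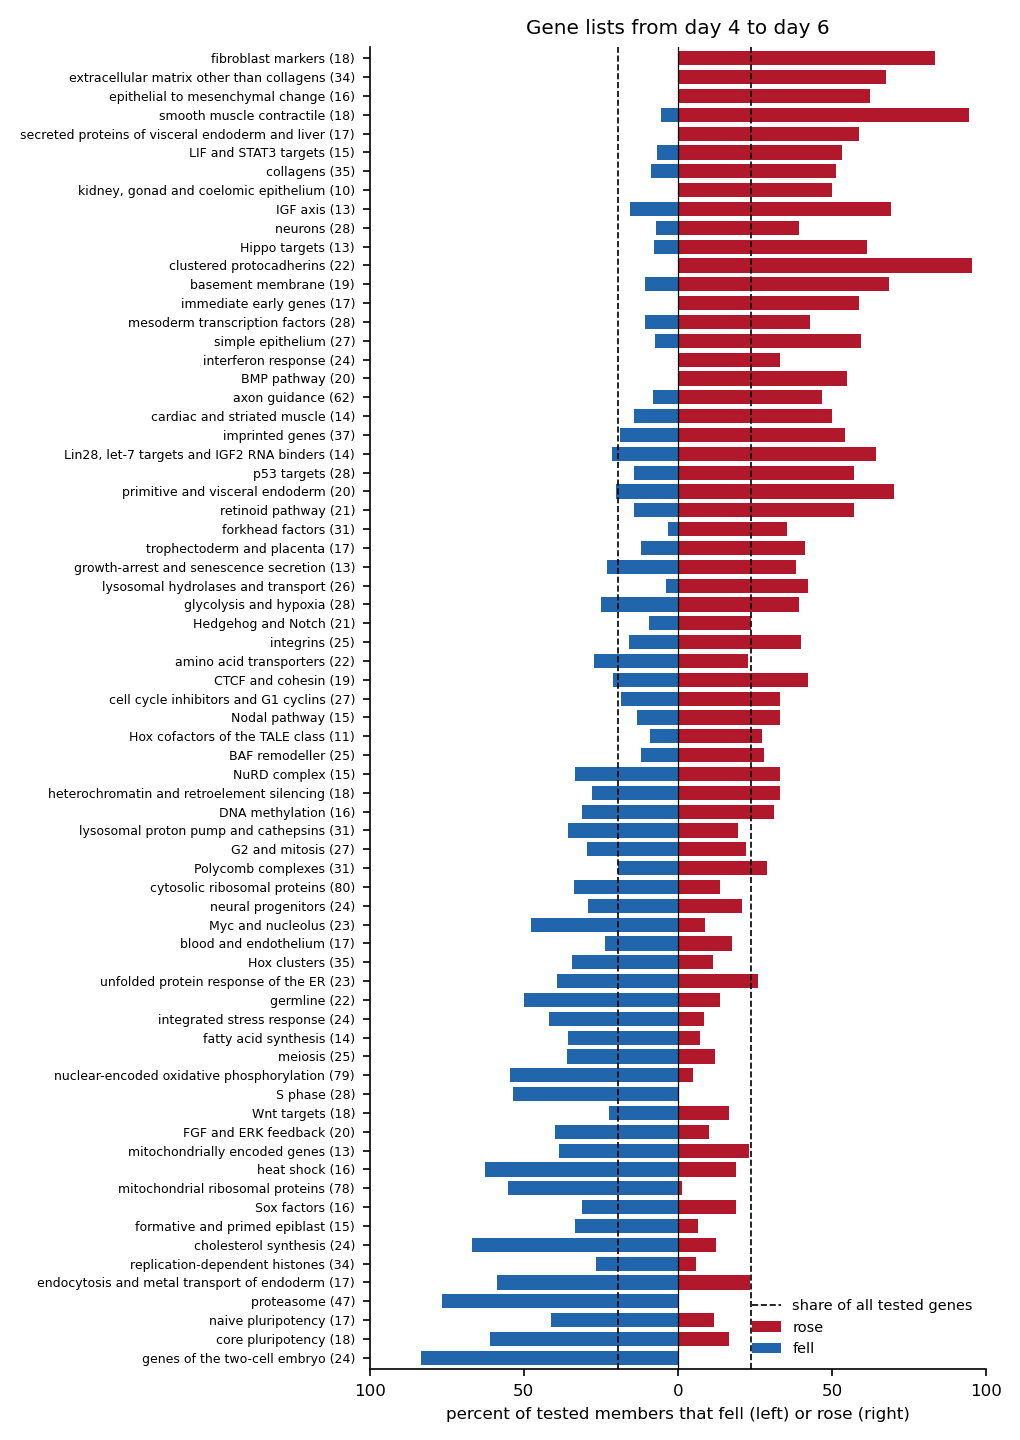
Percent of the tested members of each gene list that rose (red, to the right) or fell (blue, to the left) from day 4 to day 6, for lists with at least 10 tested members (number in brackets), ordered by median log2 change, with dashed lines at the 23.6% and 19.3% of all tested genes. Fibroblast, matrix and smooth muscle lists are at the top, and genes of the 2-cell embryo, pluripotency and the proteasome at the bottom.

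Mesoderm regulators split. Of 28 tested mesoderm transcription factors 12 rose and 3 fell (median 0.42), beside 23.6% and 19.3% of all tested genes. The sum over 9 mesoderm markers, however, was 154 to 157 CPM on day 4 and 114 to 115 CPM on day 6. Of the 7 markers tested 4 were higher and 1 lower past the test. The marker that fell was Meox1, by more CPM than the sum did. Meox1, a factor of the somite, fell from 116, 116 and 118 to 52.0, 58.9 and 53.8 CPM (2.13-fold, adjusted p = 4.13e-19) after a mean of 30.2 CPM on day 2, so that day 4 was its highest day. Tcf15, which also acts in the somite, fell from 9.20, 9.51 and 9.09 to 2.39, 4.00 and 3.57 CPM. Wt1, of coelomic epithelium and kidney, rose from 12.4, 9.80 and 10.2 to 20.7, 20.2 and 24.1 CPM, Osr1 of intermediate mesoderm from 6.19, 6.15 and 6.39 to 14.5, 12.9 and 12.5 CPM and Foxf1 of splanchnic mesoderm from 12.2, 13.0 and 12.5 to 23.8, 20.1 and 20.7 CPM. The days did not overlap in any of these 5 genes, which held for 50.7% of all tested genes. Of the primitive streak genes none of 5 tested passed in edgeR or DESeq2. Of the 5, 1 had an unadjusted p under 0.05 (Wnt8a, chosen after its value was seen), and 1 fell with limma-voom and without day 4 replicate 3 or day 6 replicate 2. The brachyury gene T was at 0.0968, 0.288 and 0.142 CPM on day 4 and 0.150, 0 and 0.210 CPM on day 6. Gata2, of trophectoderm and blood, rose from 3.87, 2.88 and 2.13 to 13.3, 13.5 and 12.4 CPM (4.28-fold, adjusted p = 2.41e-13). Of the other GATA factors Gata4, of endoderm and heart, rose from 24.0, 23.5 and 23.0 to 36.9, 35.1 and 34.1 CPM. The rise of Gata6 (1.13-fold) did not pass without day 4 replicate 1 (adjusted p = 0.0755) or day 6 replicate 1 (0.112), and that of Gata3 (1.30-fold) did not without day 4 replicate 2 (0.129) or day 6 replicate 2 (0.159), and with DESeq2 neither passed (0.0594 and 0.0647).

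Extraembryonic endoderm genes were split between secreted proteins and genes of uptake. Of 20 tested regulators and markers 14 rose and 4 fell (median 0.21), beside 23.6% and 19.3% of all tested genes. Of 17 secreted proteins 10 rose and 7 did not pass (median 0.70). The sum over 11 endoderm markers was nevertheless lower on day 6, at 985 to 1001 CPM, than on day 4, at 1087 to 1100 CPM, with 7 of the markers higher and 3 lower past the test. Dab2, which is among these markers, fell by more CPM than the sum did. Apoa1, the main protein of high-density lipoprotein, rose from 29.04, 30.5 and 32.4 to 92.4, 83.5 and 99.4 CPM (3.01-fold, log2 1.59 ± 0.07, adjusted p = 1.43e-20). Ttr, the carrier of thyroid hormone and of retinol-binding protein, rose from 21.4, 20.9 and 20.6 to 49.2, 43.6 and 46.7 CPM (2.22-fold), and Fgb, a fibrinogen chain, from 15.6, 15.6 and 15.5 to 39.0, 43.5 and 39.7 CPM (2.61-fold). All day 6 libraries of these genes were above all of day 4, and the days did not overlap in 50.7% of all tested genes. Sparc, a collagen-binding glycoprotein that parietal endoderm makes in quantity, rose from 2704, 2656 and 2661 to 3876, 3781 and 3808 CPM. Sox17, an endoderm transcription factor, rose from 34.8, 37.0 and 35.3 to 50.1, 52.3 and 48.2 CPM. In the list of endocytosis and metal transport 10 of 17 fell and 4 rose (median -0.30), and 2 rose when day 4 replicate 2 was left out. Dab2, an endocytic adaptor, fell from 544, 537 and 526 to 364, 374 and 357 CPM (1.47-fold, adjusted p = 6.19e-14). Its receptor partners Cubn, Amn and Lrp2 fell by 0.31, 0.74 and 0.20 on the log2 scale. Fth1, the ferritin heavy chain, fell from 382, 384 and 391 to 276, 294 and 273 CPM, while Slc40a1, the iron exporter ferroportin, rose from 5.03, 5.28 and 3.55 to 10.4, 13.1 and 12.9 CPM.

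Epithelial genes rose beside the mesenchymal ones. Of 27 tested genes of simple epithelium 16 rose and 2 fell (median 0.34), beside 23.6% and 19.3% of all tested genes. The falls were lost without day 6 replicate 1 and were 1 without day 4 replicate 2. Krt18 and Krt19, keratins of simple epithelia, rose from 151, 159 and 143 to 291, 295 and 280.1 CPM and from 78.0, 73.4 and 74.96 to 146, 129 and 136 CPM (1.91-fold and 1.82-fold). Epcam, an epithelial adhesion molecule, rose from 59.0, 56.8 and 55.8 to 90.5, 89.0 and 86.8 CPM, and Cldn7, a tight junction protein, from 23.4, 22.5 and 21.3 to 50.1, 49.7 and 56.3 CPM (2.31-fold). Cdh1, E-cadherin, rose by log2 0.31.

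Genes of retinoid signalling rose more often than they fell. Of 21 tested 12 rose and 3 fell (median 0.20), beside 23.6% and 19.3% of all tested genes. The summed level of the list nevertheless went down, from 3748 CPM on day 4 to 2603 CPM on day 6. Its lowest log2 change, -1.71, was that of Stra8, described above. Tgm2, a transglutaminase that retinoic acid induces, rose from 42.3, 41.3 and 45.002 to 107, 103 and 93.1 CPM (2.37-fold, adjusted p = 1.51e-19). Rbp4, the plasma retinol carrier, rose from 31.8, 26.9 and 31.7 to 69.9, 66.4 and 76.9 CPM (2.37-fold). Cyp26a1, the enzyme that degrades retinoic acid, fell from 752, 759 and 734 to 608, 602 and 579 CPM (1.255-fold), whereas its paralog Cyp26b1 rose from 362, 341 and 348 to 400.4, 425 and 396 CPM (1.16-fold). Rarb, a retinoic acid receptor and itself a target, rose 1.15-fold.

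Of 35 tested Hox genes, which pattern the body axis, 12 fell (34.3%) and 4 rose (11.4%), beside 19.3% and 23.6% of all tested genes (median -0.08). Of the 12 falls 8 were in the HoxB cluster. The 4 rises were 1 without day 4 replicate 2 and 2 without day 4 replicate 1 or day 6 replicate 1. Hoxb8 fell from 74.0, 72.7 and 73.1 to 40.8, 38.1 and 45.6 CPM (1.77-fold, adjusted p = 6.81e-14), Hoxb6 from 70.5, 67.2 and 66.7 to 44.6, 46.4 and 40.7 CPM and Hoxb2 from 34.7, 33.4 and 32.2 to 19.8, 20.5 and 19.1 CPM. Hoxb1, the most anterior of the cluster, fell from 7.16, 10.6 and 9.80 to 4.71, 3.24 and 3.05 CPM (2.40-fold). Hoxb7 was the exception among tested HoxB genes that passed, with a rise of log2 0.41. Meis1, a homeobox partner of Hox proteins, rose from 77.3, 75.6 and 74.96 to 109, 104 and 106 CPM.

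**Figure D4:**
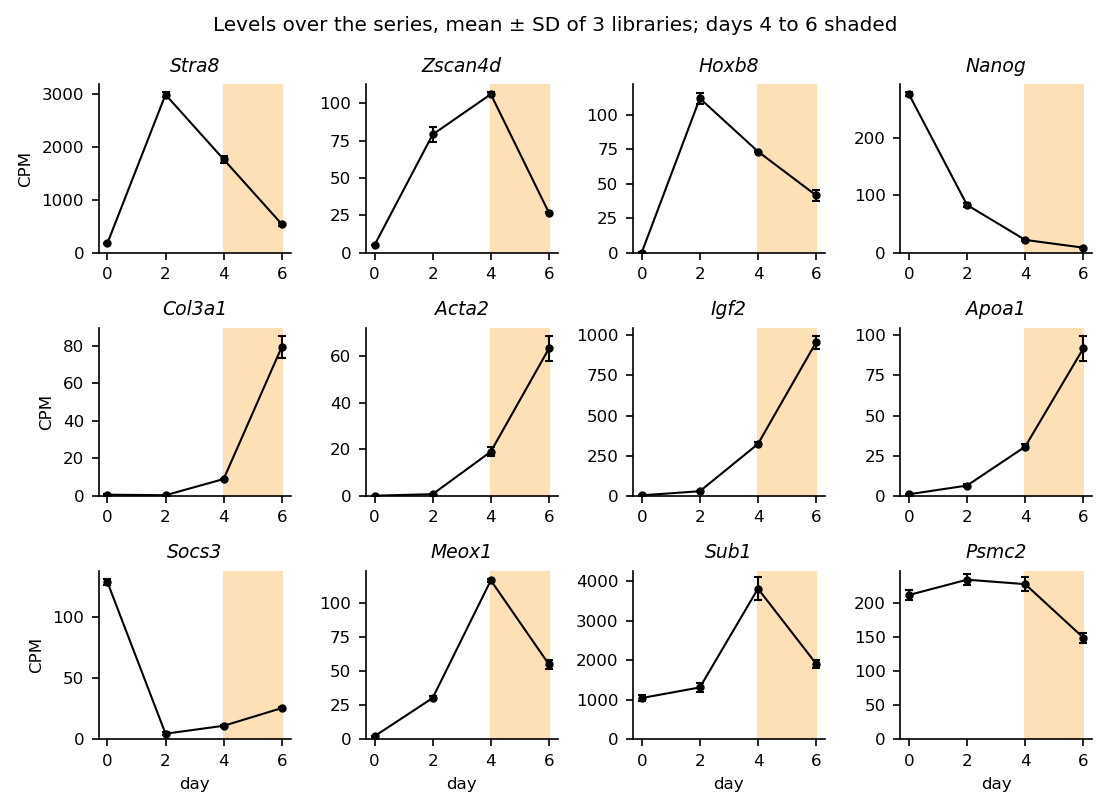
Mean CPM ± SD of 3 libraries on days 0, 2, 4 and 6 for 12 genes, with the interval from day 4 to day 6 shaded. Stra8, Zscan4d, Hoxb8, Nanog, Meox1, Sub1 and Psmc2 go down in the shaded interval and Col3a1, Acta2, Igf2, Apoa1 and Socs3 go up.

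Imprinted genes and the IGF axis rose more often than they fell. Of 37 tested imprinted genes 20 rose (54.1%) and 7 fell (18.9%), beside 23.6% and 19.3% of all tested genes (median 0.23). H19, the maternally expressed RNA next to Igf2, rose from 155, 163 and 159 to 391, 384 and 409 CPM (2.48-fold, adjusted p = 2.82e-24), while Igf2 itself rose 2.96-fold. In the Dlk1 domain the Notch-like ligand gene Dlk1 rose from 84.0, 84.0 and 84.2 to 237, 211 and 227 CPM (2.68-fold, adjusted p = 1.27e-23) and the noncoding Meg3, of the other parental allele, from 444, 428 and 450.0 to 995, 1009 and 985 CPM (2.26-fold, adjusted p = 1.68e-23). Thus both members of each pair, which are normally expressed from opposite alleles, rose. The counts do not separate the alleles. Cdkn1c, a maternally expressed cell cycle inhibitor, rose from 20.3, 22.8 and 20.2 to 51.6, 58.4 and 56.3 CPM (2.61-fold). Peg3, a paternally expressed zinc finger gene, rose from 1501, 1506 and 1559.7 to 2201, 2165 and 2219 CPM. Magel2 fell by 2.16 on the log2 scale and Snrpn did not pass (log2 0.00). Of 13 IGF genes 9 rose and 2 fell (median 0.48), with 1 fall without day 4 replicate 3 or without day 6 replicate 3. The binding proteins Igfbp4 and Igfbp5 rose from 33.3, 35.9 and 32.7 to 81.8, 70.4 and 80.8 CPM and from 37.8, 41.5 and 42.4 to 79.3, 86.4 and 78.2 CPM, and Igf2r, which clears IGF2, from 111, 108 and 115 to 153, 147 and 162 CPM. Airn overlaps Igf2r in antisense, and whether strand was used in counting is not given in the sources used here, so reads of the pair cannot be told apart.

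Of 15 NuRD genes 5 rose and 5 fell (median 0.01), and 3 fell without day 4 replicate 2 or with length-corrected scaling. Each share was 33.3%, beside 23.6% of all tested genes that rose and 19.3% that fell. Hdac1, a catalytic deacetylase, fell from 106, 115 and 112 to 75.4, 79.7 and 70.8 CPM (1.47-fold, log2 -0.56 ± 0.05, adjusted p = 4.5e-11), while its paralog Hdac2, with 441, 412 and 533 and then 454, 464 and 472 CPM, did not pass (adjusted p = 0.935). Rbbp7, a histone chaperone subunit, rose from 768, 759 and 786 to 986, 952 and 1041 CPM (1.29-fold), and its paralog Rbbp4 fell from 215, 219 and 219 to 166, 163 and 177 CPM (1.29-fold). Mbd2 rose from 66.7, 74.7 and 65.7 to 102, 93.4 and 96.4 CPM. Its paralog Mbd3 measured 198, 203 and 196 CPM and then 176, 184 and 176 CPM, a fall (adjusted p = 0.00508) that did not pass with length-corrected scaling (adjusted p = 0.121). Gatad2b rose from 42.2, 44.0 and 44.7 to 64.6, 69.0 and 61.5 CPM, whereas Gatad2a did not pass (adjusted p = 0.847). Chd4, the main ATPase, did not pass either, with means of 881 and 929.5 CPM (log2 0.08 ± 0.04, adjusted p = 0.169), and its paralog Chd3 rose 1.22-fold. The fall of the neural paralog Chd5 (1.31-fold) was lost without day 4 replicate 2 (adjusted p = 0.051) or day 6 replicate 1 (0.0793).

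Of 19 CTCF and cohesin genes 8 rose and 4 fell (median 0.05), with 2 falls without day 6 replicate 1, and 5 rises and 6 falls (median -0.01) with length-corrected scaling. The main shares were 42.1% up and 21.1% down, beside 23.6% and 19.3% of all tested genes. Ctcf measured 210.4, 211 and 205 CPM and then 188, 192 and 194 CPM, a fall of 1.09-fold (adjusted p = 0.0169) that was lost without day 4 replicate 2 (adjusted p = 0.0568) or day 6 replicate 1 (0.0762). Rad21, the kleisin subunit of cohesin, fell from 704, 718 and 724 to 640.2, 629 and 635 CPM (1.13-fold, adjusted p = 0.00069). The ring subunits Smc1a and Smc3 did not pass. Nipbl, which loads cohesin, rose from 122, 126 and 122 to 158, 169.7 and 149.9 CPM (1.29-fold, adjusted p = 9.51e-08). No gene of the 2 lists that passed changed by 1.5-fold or more.

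Housekeeping complexes fell by small amounts in many members. Of 47 proteasome genes 36 fell and 11 did not pass (median -0.31), beside 19.3% of all tested genes that fell and 23.6% that rose. Psmc2 and Psmc5, ATPases of the regulatory particle, fell from 217, 231 and 237 to 143, 157 and 148 CPM and from 294, 304 and 302 to 203, 201 and 196 CPM (1.53-fold and 1.498-fold, adjusted p = 1.42e-13 and 1.59e-13). Of 78 mitochondrial ribosomal proteins 43 fell and 1 rose (median -0.20), of 79 nuclear-encoded genes of oxidative phosphorylation 43 fell and 4 rose (median -0.16; 2 rises without day 4 replicate 1 or 3), and of 80 cytosolic ribosomal proteins 27 fell and 11 rose (median -0.04). Mrpl20 fell from 59.6, 62.7 and 58.6 to 34.6, 30.03 and 34.3 CPM, Ndufc2 of respiratory complex I from 123.03, 117 and 107 to 57.9, 55.7 and 60.0 CPM and Rpl37 from 405, 427 and 422 to 252, 256 and 247 CPM. Cycs, cytochrome c, had the smallest p of the named falls after Stra8 and Zscan4d and fell from 275, 271 and 287 to 113, 100.1 and 109 CPM (2.58-fold, adjusted p = 6.41e-24). Many of these genes are short, and the comparison had an association with transcript length. In the shortest quintile of tested genes, by longest GENCODE M21 transcript, 11.9% rose and 24.0% fell (median -0.11). In the longest quintile 38.8% rose and 10.8% fell (median 0.12). From day 2 to day 4 the medians of the quintiles ran from -0.01 to 0.02. With offsets that remove the association with length, chosen after the data were seen, 35 proteasome genes fell, 30 mitochondrial ribosomal proteins fell and 1 rose, 28 genes of oxidative phosphorylation fell and 11 rose, and for cytosolic ribosomal proteins the balance turned to 25 rises and 16 falls. No direction is therefore given for the cytosolic ribosomal proteins. With the same offsets collagen falls were 5, other matrix genes had 2 falls and BMP genes 2. The same length association touches the lists of long genes that rose: the median longest transcript was 6119 bases for collagens and 6536 for basement membrane genes, beside 1907 for the proteasome and 1108 for cytosolic ribosomal proteins. Processed pseudogenes, which are short, fell in 21.2% and rose in 6.59% of 911 tested, against 19.6% and 25.7% of 14179 protein-coding genes.

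**Figure D5:**
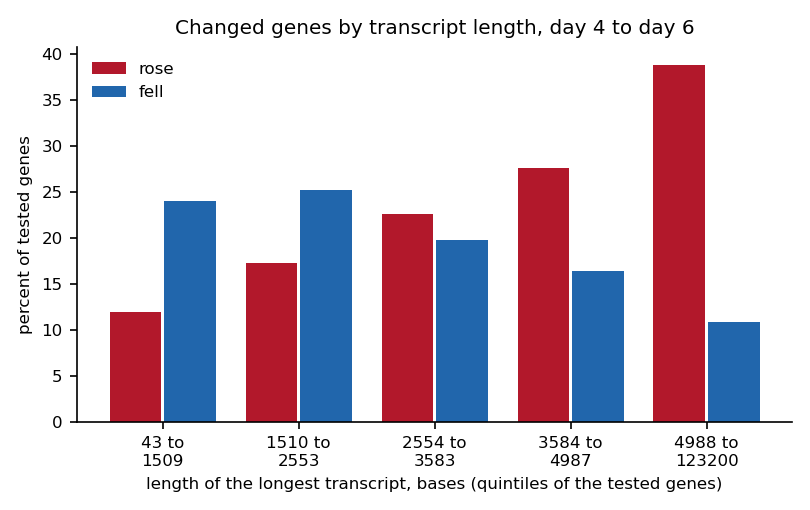
Percent of tested genes that rose (red) or fell (blue) from day 4 to day 6 in each quintile of the length of the longest transcript, in bases. The share that rose goes from 11.9% in the shortest to 38.8% in the longest quintile.

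Genes of DNA synthesis fell too. Of 28 tested S phase genes 15 fell and 13 did not pass (median -0.17). Tyms, thymidylate synthase, fell from 35.9, 37.8 and 44.1 to 25.4, 24.2 and 24.1 CPM (1.58-fold) and Pcna, the replication clamp, from 205, 209 and 212 to 160.4, 151 and 174 CPM (1.29-fold). Among 27 genes of G2 and mitosis 8 fell (29.6%) and 6 rose (22.2%), beside 19.3% and 23.6% of all tested genes (median -0.03). Aurkb, the mitotic kinase, rose from 56.3, 56.2 and 61.3 to 79.5, 77.2 and 79.6 CPM. Cholesterol synthesis fell: 16 of 24 genes, with 3 rises (median -0.26). Msmo1, a sterol oxidase, fell from 59.2, 57.4 and 53.2 to 30.1, 27.4 and 28.0 CPM (1.99-fold, adjusted p = 1.1e-15). Hspa8, the constitutive chaperone of the heat shock list, fell from 3389, 3337 and 3330.0 to 2100.0, 2050.3 and 2095 CPM (1.61-fold), and 10 of the 16 members of that list fell and 3 rose (median -0.19).

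The last step was set against the 2 steps before it. The change from day 4 to day 6 differed from that from day 2 to day 4 in 5613 genes (34.1%), and from that from day 0 to day 2 in 9930 (60.3%), each tested as a contrast of the 2 steps. From day 2 to day 4, 8245 genes had changed (50.1%). In 858 genes (5.21%) a rise to day 4 was followed by a fall, with a difference of the steps that passed, and in 798 (4.85%) a fall by a rise. Sub1, a transcriptional coactivator, had a mean of 1307 CPM on day 2 and fell from 3851, 3496 and 4073 to 1899.5, 1808 and 2015 CPM (2.00-fold, adjusted p = 5.58e-10). Trappc6b, a vesicle tethering subunit, had 50.5 CPM on day 2 and fell from 131, 134 and 131 to 59.9, 54.1 and 58.6 CPM. Arg1, arginase, had 7.82 CPM on day 2 and fell from 14.6, 16.0 and 15.5 to 7.03, 6.05 and 6.73 CPM, and Nepn, a small proteoglycan of endoderm, 0.344 CPM on day 2 and from 12.9, 13.8 and 13.6 to 6.06, 6.05 and 5.26 CPM. In each of the 4 genes day 4 was the highest day. The choice of turned genes fixed this against days 2 and 6, and both steps share the day 4 libraries. Among the genes that fell and then rose was the sodium channel subunit Scn3b, with 1.14 CPM on day 2, 0.484, 0.288 and 0.142 on day 4 and 0.973, 0.972 and 1.16 on day 6. These levels were near the floor. The rule for turned genes required 5 CPM on the highest day, which for Scn3b was therefore day 0. Another was Pycr1, a proline synthesis enzyme, with 9.23 CPM on day 2, then 2.71, 3.65 and 3.97 and 6.66, 5.18 and 5.89 CPM. Across all tested genes the log2 changes of the last and first steps, which share no library, had a Pearson correlation of -0.06, a description over genes that are not independent.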

How the data were processed

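Polyadenylated RNA of 12 mouse embryonic stem cell libraries, 3 for each of days 0, 2, 4 and 6, was sequenced with the SMARTER mRNA-Seq library kit, per the labels' protocols. The authors deposited whole-number read counts per gene. The submitters' processing notes name FastQC 0.11.7, HISAT2 2.1.0, featureCounts 2.0.1, DESeq2 and mm10. Strand setting, handling of multi-mapping reads and annotation release are not given in the sources used here.

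From the deposited counts, genes were kept with edgeR's filterByExpr by day, scaled by TMM and fitted over all 12 libraries with 1 coefficient per day (R 4.3.3, edgeR 4.0.16, quasi-likelihood test with robust dispersion, Benjamini-Hochberg adjustment over 16468 genes). All 12 libraries entered the fit, so the days share the estimate of spread. SE is the absolute log2 change divided by the square root of F. Totals of the 6 libraries compared ran from 6945900 to 13266962 counts, and their number, 3 a day, limits the precision. DESeq2 1.42.0 and limma-voom (limma 3.58.1) were alternatives, and the pipeline was tested on simulated data. Figures were drawn with matplotlib.

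The named genes were the 12 largest rises and 12 largest falls with adjusted p under 0.05, a level of 5 CPM or more on one of the days and no overlap between their replicates, the 6 smallest p-values in each direction under the same conditions, from each list the members with the 4 smallest p-values, a set of genes of known roles, and the 6 genes with the largest turn in each direction. Symbols of predicted or clone-derived genes were passed over. List members given only by a log2 change, or named only as not passing, were chosen after their values were seen. The comparison, the 77 gene lists and the set of genes were chosen with earlier results of these data known. Gene positions and lengths come from GENCODE M21 (16452 of 16468 tested genes matched) and promoters from RefSeq on GRCm38.p6. Motifs were searched on both strands.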

Additional observations from a re-analysis of the deposited data

Results flagged for a closer look

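Both results here were picked out by a test of the difference between steps, a contrast of 2 steps in the 12-library edgeR fit. The change from day 4 to day 6 differed from that from day 2 to day 4 in 5613 genes at an adjusted p under 0.05. The same 2 comparisons share the day 4 libraries, so a high or low day 4 value moves them in opposite directions. The change from day 4 to day 6 differed from that from day 0 to day 2 in 9930 genes, and these comparisons share no library. In the cross-table of the first and last steps 1565 genes rose in both, 1121 fell in both, 1232 rose and then fell, and 1309 fell and then rose.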

How the results depend on the processing

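The count of changed genes, 7065, ran from 5376 (adjusted p under 0.01) and 5711 (DESeq2) to 7114 (upper-quartile scaling) over the alternatives, all within 1.5 times. It was 6231 to 6586 with 1 library left out. The genes that differed between the last and the second step were 4476 to 5444 with 1 library left out, against 5613, and those that differed from the first step 9560 to 9782, against 9930. No named gene that passed the test reversed its direction under any alternative. List medians near 0 did change sign: with the length-corrected offsets described next, those of NuRD (0.01 to -0.04), CTCF and cohesin (0.05 to -0.01) and cytosolic ribosomal proteins (-0.04 to 0.02) did, and that of neural progenitors did without day 6 replicate 1 (-0.07 to 0.05). With upper-quartile scaling the excess of rises was lost, as 3554 genes rose and 3560 fell, and 6726 of its changed genes were among the 7065. The excess was small with library size alone (3610 rose and 3488 fell) and in a fit of the 6 libraries alone (3550 and 3448). Offsets that remove the association with transcript length, chosen after seeing the data, left 6815 changed genes, 6061 of them among the 7065. Without Gm42418 and the mitochondrial genes 7046 genes changed. With the replicate number as a block 7004 genes changed, 5558 and 9864 differed between steps, and every named gene kept its call. The block was not used as the main fit. The deviations of same-numbered libraries correlated at 0.02, 0.0343 and 0.00822, each under 0.1. Those of differently numbered libraries ran from -0.0319 to 0.0146 and were mostly negative. Values this small cannot show whether the numbers pair the libraries. Thinning all libraries to the total of the smallest left 15591 genes tested and 6292 changed, with 426 rises and 401 falls of at least 2-fold. What was done to the cells between the days is not known here, and time, culture and library handling cannot be told apart.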

Other observations

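Genes of neurons and of axon guidance rose more often than they fell. Of 28 tested neuronal genes 11 rose and 2 fell (median 0.48), beside 23.6% and 19.3% of all tested genes. Dcx, a microtubule protein of migrating neurons, was at 1.55, 1.15 and 1.42 CPM on day 4 and 5.91, 6.05 and 5.68 CPM on day 6 (4.27-fold), and Nefm, a neurofilament, at 13.8, 16.9 and 14.6 and then 29.3, 27.1 and 33.4 CPM. The neural progenitor list had 7 falls and 5 rises among 24 (median -0.07, and 0.05 without day 6 replicate 1). Sox1, its earliest marker, fell from 11.2, 12.6 and 14.1 to 5.09, 5.29 and 5.15 CPM (2.41-fold), while Nes, the intermediate filament nestin, rose from 44.3, 44.4 and 46.4 to 58.7, 66.6 and 65.3 CPM. Of 62 axon guidance genes 29 rose and 5 fell (median 0.24, and 0.13 with length-corrected scaling), with 3 falls without day 4 replicate 1 and 2 without day 6 replicate 1. Plxnb2, a semaphorin receptor, rose from 127, 122 and 116 to 251, 254 and 245 CPM and Efnb1, an ephrin, from 20.04, 21.9 and 21.2 to 42.9, 40.4 and 39.5 CPM. Of 22 clustered protocadherins, surface proteins that give neurons their identity, 21 rose and 1 did not pass (median 0.45), but members of a cluster share constant exons and are not separate measurements.

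Striated muscle genes had 7 rises and 2 falls among 14 (median 0.24). Myl7, the atrial myosin light chain, rose from 2.13, 1.54 and 3.69 to 6.73, 6.05 and 7.67 CPM (2.93-fold) and Myl3, of ventricle and slow muscle, from 2.03, 3.17 and 2.98 to 10.1, 10.05 and 10.1 CPM, while Ttn, the giant sarcomere protein titin, fell from 5.03, 5.09 and 5.82 to 1.87, 1.94 and 2.52 CPM. Of 24 interferon response genes 8 rose (33.3%, beside 23.6% of all tested genes) and 16 did not pass (median 0.30). Ifitm3, an antiviral membrane protein, rose from 23.2, 24.4 and 23.7 to 44.3, 37.3 and 41.4 CPM and the RNA sensor Ddx58 from 7.55, 6.05 and 5.68 to 11.0, 10.4 and 12.3 CPM. Of 28 p53 targets 16 rose and 4 fell (median 0.21). Phlda3, an inhibitor of AKT, rose from 63.4, 71.1 and 62.9 to 100.2, 114 and 97.8 CPM, and Bax, a pro-apoptotic gene, fell from 133, 122 and 124 to 84.7, 82.4 and 84.2 CPM. Transcripts of the mitochondrial genome did not move together. mt-Nd6, the protein gene of the light strand, rose from 53.3, 53.2 and 54.9 to 115, 119 and 121 CPM, and mt-Cytb fell from 9718, 8723 and 9088 to 5409, 4835 and 5342 CPM. Of the 13 such genes 3 rose and 5 fell, with 1 rise without day 4 replicate 3, without day 6 replicate 1, or with upper-quartile or library-size scaling. Since the strand setting of the counting is not given, reads of mt-Nd6 and of the opposite strand cannot be told apart.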
